A study of Mus musculus with 6 samples.

Results

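The enzymes described here make serine from a glycolytic intermediate and pass its carbon through folate. They are 10 genes chosen by symbol, of 21671 named genes in the table: Phgdh, Psat1 and Psph for serine synthesis, Shmt1, Mthfd1 and Aldh1l1 for the cytosolic folate arm, and Shmt2, Mthfd1l, Mthfd2 and Aldh1l2 for the mitochondrial folate arm. All 10 passed the filter on low counts. RNA was sequenced from subcutaneous tumours that grew in mice of the strain labelled CD1 nude ho after injection of transformed hepatoblasts. These cells carried TtRMPVIR shST18, a vector from which doxycycline induces a short hairpin RNA against St18. The 3 untreated libraries are labelled wild type by genotype, yet by the treatment protocol their cells hold the vector too. The other 3 libraries, labelled ST18 knockdown, come from mice killed 4 h after a first gavage of 300 µl of water with doxycycline, given in the labels as 200 mg/ml. The sources used here give no age, sex or number of cell clones. Hairpin expression was not measured, and effects of the drug, the gavage and any hairpin expression cannot be told apart. Nothing in the labels states that libraries of a group come from different mice, so p-values may cover technical spread alone.

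Serine synthesis starts in the cytosol from 3-phosphoglycerate. Phgdh oxidises it, Psat1 transfers an amino group to the product, and Psph removes the phosphate. Serine hydroxymethyltransferases then move a carbon from serine to tetrahydrofolate and leave glycine. Cytosol and mitochondria each hold their own set of folate enzymes, and the mitochondrial set can run from serine to formate, which leaves for the cytosol and feeds purine and thymidylate synthesis. Genes of serine synthesis and of the mitochondrial arm are known targets of ATF4, the transcription factor of the amino acid response.

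The promoters of 2 pairs of mitochondrial and cytosolic counterparts are shown because the results turn on how these counterparts differ. They are Shmt2 with Shmt1, and Mthfd2 with Mthfd1. Each line gives the 120 bases before the RefSeq transcription start on build GRCm38.p6, with motif matches in capitals.
Shmt2: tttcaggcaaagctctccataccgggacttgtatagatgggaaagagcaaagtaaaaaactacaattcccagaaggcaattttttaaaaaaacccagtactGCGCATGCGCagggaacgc
Shmt1: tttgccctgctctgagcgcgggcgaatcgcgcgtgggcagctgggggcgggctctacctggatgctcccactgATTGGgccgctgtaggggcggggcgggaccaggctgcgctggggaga
Mthfd2: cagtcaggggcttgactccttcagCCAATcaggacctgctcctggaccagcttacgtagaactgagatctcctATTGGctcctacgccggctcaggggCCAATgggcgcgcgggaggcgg
Mthfd1: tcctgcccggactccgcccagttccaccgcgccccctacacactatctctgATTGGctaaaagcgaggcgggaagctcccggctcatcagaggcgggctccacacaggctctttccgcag
The stretches lie at chr10:127522445-127522564 (- strand) for Shmt2, chr11:60811266-60811385 (- strand) for Shmt1, chr6:83317605-83317724 (- strand) for Mthfd2 and chr12:76255112-76255231 (+ strand) for Mthfd1. The capitals in Shmt2 mark GCATGCGC, the core bound by NRF1, a regulator of nuclear genes for mitochondrial proteins, on both strands as overlapping matches at 19 to 12 and 17 to 10 bases before the start. In the other 3 genes the capitals mark CCAAT or its reverse complement, the box bound by NF-Y, once in Shmt1, once in Mthfd1 and at 3 places in Mthfd2. The searched motifs, chosen after the values were seen and matched on both strands, were TGATGNAA (the composite site of ATF4 and C/EBP proteins), TGACGTCA (the cyclic AMP response element), CACGTG (the E-box), GCATGCGC, CCAAT and TATAAA. No match to 1 motif overlapped a match to another in the printed stretches. Of the 10 members, 9 matched RefSeq windows of 250 bases before to 50 after a start, with 10 windows in all since Psat1 has a pair. Aldh1l2 had no window, so the motif counts do not cover it. TGATGNAA, TGACGTCA and CACGTG were in 0 of these 10 windows, against 3.97%, 1.79% and 7.15% of 32851 windows over all genes. CCAAT was in 7 of the 10 windows, those of 7 members (Phgdh, Psat1, Psph, Shmt1, Mthfd1, Mthfd2 and Aldh1l1), against 37.4% of all windows. GCATGCGC was in the Shmt2 window, against 2.71% of all windows, and TATAAA in that of Phgdh, against 13.6%. These matches describe the letters in these windows only.

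Libraries held 12090309 to 16169043 counts. St18, the target of the hairpin, had 12, 23 and 19 counts untreated and 34, 12 and 61 counts after doxycycline (replicates 1, 2 and 3), so a lower target was not seen under the knockdown label (edgeR log2 fold change 1.03, adjusted p = 0.298). Summed normalised counts of 15 skeletal muscle markers were 87.0 to 222 CPM untreated and 412 to 2781 CPM after doxycycline. CPM are not divided by length, and Ttn, with a transcript of 106824 bases, weighs heavily in these sums. Alone it was at 44.6 to 157 CPM untreated and at 297 to 2041 CPM after doxycycline. Of the 15, 9 were higher by edgeR, 14 by DESeq2 and 1 by limma-voom. Over all 14809 genes tested, edgeR called 2.84% higher and 2.18% lower. DESeq2 called 887 of them higher and 782 lower, and limma-voom 251 higher and 276 lower. For 12 fibroblast and mural markers the sums were 1303 to 1349 and 1715 to 1986 CPM (3 of 12 higher by edgeR, 6 by DESeq2, 3 by limma-voom), for 10 macrophage markers 376 to 450.1 and 520.0 to 686 CPM (3 of 10 higher by edgeR, 6 by DESeq2, 2 by limma-voom), and for 6 endothelial markers 305 to 328 and 382 to 392 CPM (2 of 6 higher by each tool). The 7 neutrophil markers in the table summed to 99.4 to 159 and 41.8 to 77.3 CPM (1 of 7 lower by edgeR, 4 by DESeq2, 0 by limma-voom, 4 at an unadjusted p under 0.05 in edgeR). None of these markers was at 0 in every library, and the part of these cell types in the results was not tested. The tumour label was checked against 14 hepatoblast, hepatocyte and biliary markers. Alb and Ttr each had fewer than 10 counts over the 6 libraries. Of the 14, 8 passed the filter, among them Krt8, Krt18 and Sox9. In bulk tumour RNA, fewer cells of a type and less RNA per cell cannot be told apart.

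The mitochondrial folate arm was lower after doxycycline throughout, and no member of the cytosolic folate arm passed the threshold in edgeR or limma-voom, while DESeq2 called Mthfd1 lower. All 4 mitochondrial members fell by each of the 3 tools, with edgeR log2 fold changes from -0.87 to -0.39. Of the serine synthesis enzymes Psph fell, and Phgdh and Psat1 did not pass the threshold in edgeR, while DESeq2 called Psat1 lower as well. In edgeR's quasi-likelihood test, 5 of the 10 members were lower, where 2.18% of the 14809 genes tested were lower and 5.02% changed in either direction (adjusted p under 0.05). DESeq2 called 7 of the 10 lower and limma-voom 5, against 782 and 276 of the 14809 genes tested. The groups did not overlap for 8 of the 10, all lower after doxycycline, against 14.4% of all genes lower and 15.2% higher in this sense. None of the 10 was higher by edgeR, DESeq2 or limma-voom. Over all genes, edgeR called 2.84% higher, DESeq2 887 genes and limma-voom 251 genes. At an unadjusted p under 0.05 in edgeR, 1 of the 10, Aldh1l1, was higher. The median log2 fold change was -0.64 over the mitochondrial arm, -0.27 over serine synthesis and -0.19 over the cytosolic arm, against 0.01 over all genes tested. The count of 5 fell to 1 (Aldh1l2) without any single untreated library, when calls over all genes fell as well. It fell to 3 without doxycycline replicate 3, when lower calls over all genes fell from 323 to 130. It rose to 9 without doxycycline replicate 2, when lower calls over all genes rose to 866.

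**Figure D1:**
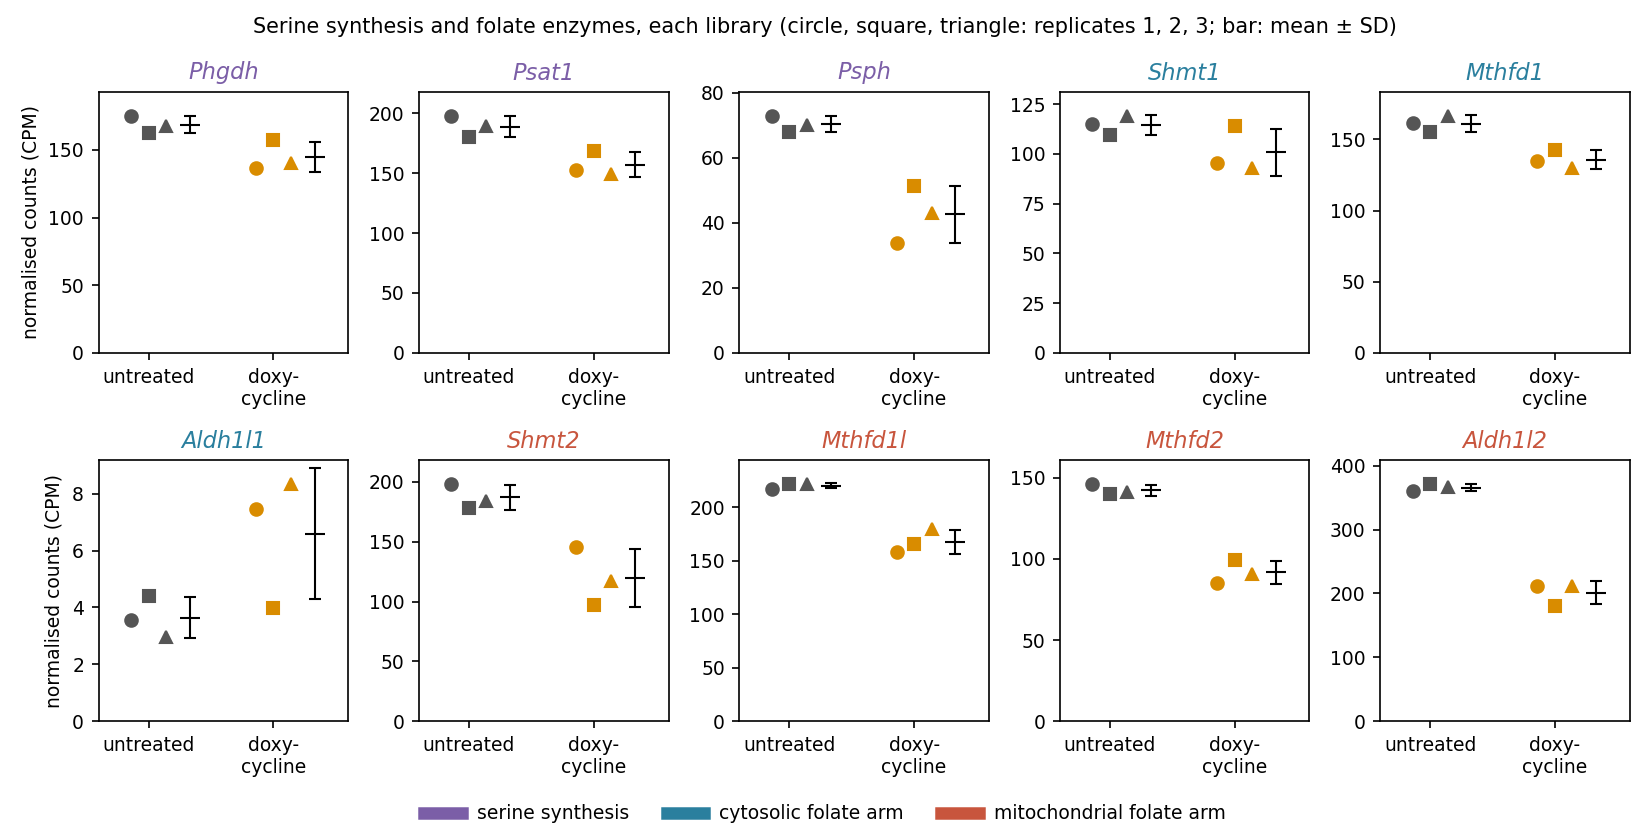
Normalised counts (CPM, y axis, from 0) of the 10 enzymes in each untreated (grey) and doxycycline (orange) library, with circles, squares and triangles for replicates 1, 2 and 3 and black bars for mean ± SD. The groups do not overlap for any of the 4 mitochondrial members, and they overlap for Shmt1 and Aldh1l1.

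**Figure D2:**
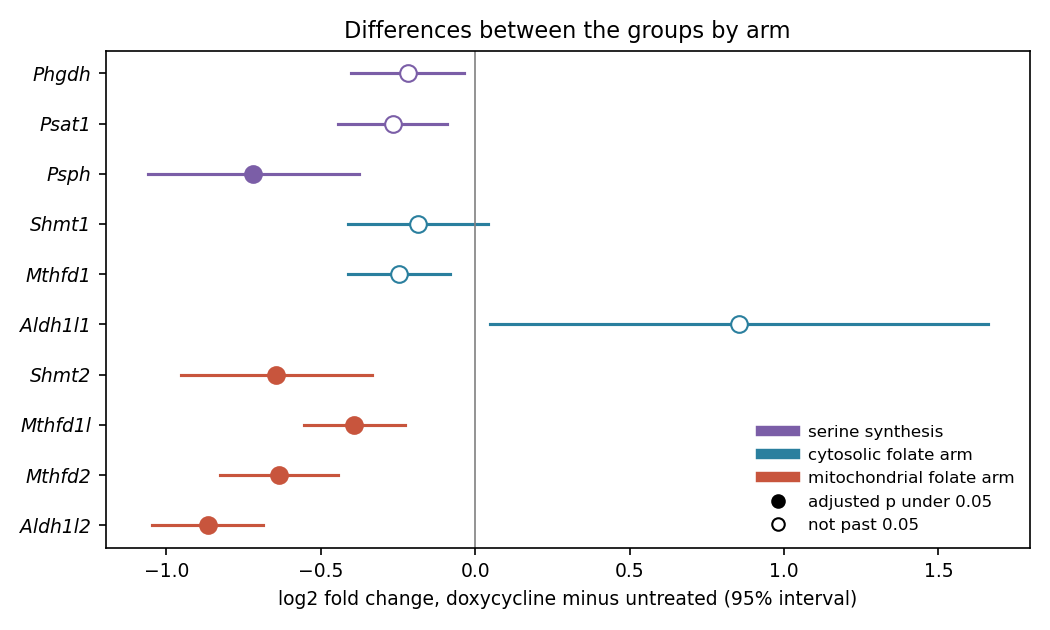
Log2 fold change (x axis, doxycycline minus untreated) of each enzyme with its 95% interval, coloured by arm, filled where the edgeR adjusted p is under 0.05. The 4 mitochondrial members and Psph are filled, from -0.87 for Aldh1l2 to -0.39 for Mthfd1l.

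In the mitochondrial arm, Aldh1l2 had the largest decrease. It encodes 10-formyltetrahydrofolate dehydrogenase of mitochondria, which oxidises the formyl group to carbon dioxide and makes NADPH. Its level was 359.5, 371 and 366 CPM untreated and 211, 179.9 and 211 CPM after doxycycline, always in the order of replicates 1, 2 and 3. Every doxycycline library lay far under the lowest untreated one, and the mean after doxycycline was 54.9% of the untreated mean. Its log2 fold change reached -0.87 (SE 0.08, 95% interval -1.04 to -0.69, edgeR adjusted p = 0.00413), the ninth smallest p of all genes tested (rank 9). Aldh1l2 was the only member past the threshold whichever library was left out (adjusted p 2.80e-04 to 0.0323 over those 6 fits). Among the 3517 genes with an untreated mean of at least 100 CPM, whose median log2 fold change was -0.03, its decrease ranked 14.

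Mthfd2, the mitochondrial methylenetetrahydrofolate dehydrogenase and cyclohydrolase, was at 146, 140.0 and 141 CPM untreated and at 84.9, 99.2 and 90.9 CPM after doxycycline. The replicates of each group lay close together and the groups were well apart. Mthfd2 differed by -0.63 in log2 fold change (SE 0.08, 95% interval -0.82 to -0.44, edgeR adjusted p = 0.0121). The call was lost without any single untreated library (adjusted p 0.0633 to 0.0923), with the log2 fold change between -0.66 and -0.62.

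Shmt2, which takes the carbon from serine inside mitochondria, was at 198, 179 and 184 CPM untreated and at 145, 97.1 and 117 CPM after doxycycline. The doxycycline libraries were spread widely, and replicate 2 was the lowest. Shmt2 differed by -0.64 in log2 fold change (SE 0.14, 95% interval -0.95 to -0.33, edgeR adjusted p = 0.0363). The threshold was missed with offsets for GC content and gene length (log2 fold change -0.48, adjusted p = 0.104), without doxycycline replicate 3 (adjusted p = 0.105) and without any 1 untreated library (adjusted p 0.0992 to 0.161).

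Mthfd1l, which releases formate from formyltetrahydrofolate, had the smallest decrease of the arm. It was at 217, 221 and 222 CPM untreated and at 158, 165 and 179.9 CPM after doxycycline. Its untreated libraries differed by a few CPM, and each doxycycline library was lower. Mthfd1l differed by -0.39 in log2 fold change (SE 0.07, 95% interval -0.56 to -0.23, edgeR adjusted p = 0.0249), a call lost without doxycycline replicate 1 (adjusted p = 0.0519) and without any 1 untreated library (adjusted p 0.092 to 0.142). Summed over the arm, the libraries lay between 911 and 921 CPM untreated and between 542 and 599 CPM after doxycycline.

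Among the serine synthesis enzymes, Psph, the phosphatase of the last step, was at 73.0, 68.0 and 70.0 CPM untreated and at 33.8, 51.3 and 43.0 CPM after doxycycline. All 3 doxycycline libraries were lower, replicate 1 most and replicate 2 least. Psph differed by -0.72 in log2 fold change (SE 0.15, 95% interval -1.06 to -0.38, edgeR adjusted p = 0.0357), and the call was lost without doxycycline replicate 3 (adjusted p = 0.0953) and without any 1 untreated library (adjusted p 0.108 to 0.157).

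Phgdh, the first enzyme of the route, was at 175, 163 and 168 CPM untreated and at 137, 158 and 140.0 CPM after doxycycline. The groups were separate, but doxycycline replicate 2 came close to the lowest untreated library. Phgdh differed by -0.22 in log2 fold change (SE 0.08, 95% interval -0.40 to -0.04, edgeR adjusted p = 0.145), and with offsets for GC content and length it was -0.07. Psat1, the aminotransferase of the middle step, was at 198, 179.7 and 189 CPM untreated and at 152, 169 and 149 CPM after doxycycline. Its doxycycline libraries were all lower, and the log2 fold change was -0.27 (SE 0.08, edgeR adjusted p = 0.0866), past the threshold with DESeq2 (adjusted p = 0.0402). Without doxycycline replicate 2, Phgdh was at -0.29 (adjusted p = 0.031) and Psat1 at -0.33 (adjusted p = 0.0204), both past the threshold.

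Between untreated replicates 1 and 2, the only pair examined, counts of dense genes followed sequencing depth less than those of sparse ones. Of the 10 members, 9 are in the denser range. Untreated replicate 2 held 1.23 times the counts of untreated replicate 1. Gene by gene, the median ratio between them was 1.25 over 1060 genes with 0.05 to 0.1 counts per base of the longest protein-coding transcript, 1.21 over 6021 genes with 0.1 to 0.5, 1.16 over 2392 genes with 0.5 to 1 and 1.11 over 314 genes with more than 1. Phgdh had 1.30 counts per base in the untreated mean, Shmt2 1.19 and Psat1 1.05, and their ratios between the libraries were 1.12, 1.08 and 1.09. The other members, Aldh1l1 left aside, lay at 0.587 to 0.999 counts per base. Among them the ratio was 1.12 for Psph, 1.14 for Shmt1, 1.16 for Mthfd1, 1.15 for Mthfd2, 1.22 for Mthfd1l and 1.24 for Aldh1l2. Whether the fold changes of these 9 members are compressed was not tested.

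In the cytosolic folate arm, Mthfd1, a single protein that carries 3 folate activities of the cytosol, was at 161, 155 and 167 CPM untreated and at 135, 142 and 129.8 CPM after doxycycline. The doxycycline libraries were all lower by a small amount. Mthfd1 differed by -0.25 in log2 fold change (SE 0.07, 95% interval -0.41 to -0.08, edgeR adjusted p = 0.0891), and it passed with DESeq2 (adjusted p = 0.045) and without doxycycline replicate 2 (adjusted p = 0.0328). Shmt1, the cytosolic counterpart of Shmt2, was at 115, 109 and 119 CPM untreated and at 95.5, 114 and 92.7 CPM after doxycycline. Here the groups overlapped, because doxycycline replicate 2 was as high as the untreated libraries. Shmt1 differed by -0.19 in log2 fold change (SE 0.10, 95% interval -0.41 to 0.04, edgeR adjusted p = 0.301), and without doxycycline replicate 2 it was -0.29 (adjusted p = 0.0435).

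Aldh1l1, the cytosolic counterpart of Aldh1l2 and a marker of astrocytes and hepatocytes in normal tissue, was scarce. It had 47, 70 and 44 counts untreated (3.55, 4.40 and 2.97 CPM) and 89, 58 and 133 counts after doxycycline (7.46, 3.99 and 8.34 CPM). Doxycycline replicates 1 and 3 were above every untreated library and replicate 2 was within their range. Aldh1l1 differed by 0.85 in log2 fold change (SE 0.35, 95% interval 0.05 to 1.66, edgeR adjusted p = 0.187), and 1.11 without doxycycline replicate 2 (adjusted p = 0.0361). Macrophage markers summed to 625, 520.0 and 686 CPM and fibroblast and mural markers to 1986, 1715 and 1959.5 CPM in doxycycline replicates 1, 2 and 3. The hepatoblast, hepatocyte and biliary markers summed to 207, 141 and 229 CPM there. The neutrophil markers, whose sum was lower after doxycycline, were at 50.6, 41.8 and 77.3 CPM there. All of these sums were lowest in replicate 2, as Aldh1l1 was. The muscle sum (1387.5, 2781 and 412 CPM) and the endothelial sum (382, 392 and 384 CPM) were highest in replicate 2. The part of those cells in the Aldh1l1 level was not tested.

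The difference between the arms was examined within each library, as the ratio of a mitochondrial enzyme to its cytosolic counterpart, which does not depend on library scaling. The ratio of counts was lower in every doxycycline library than in every untreated library for 3 of 4 pairs. Of single genes, 14.4% were lower in this sense, and the share over other gene pairs was not computed. Mthfd1 is the denominator for both Mthfd2 and Mthfd1l, so these ratios are not independent. With 3 libraries against 3, the two-sided exact permutation test cannot give a p under 0.10, so none of these differences could reach 0.05. Mthfd2 over Mthfd1 was 0.905, 0.902 and 0.846 in the untreated libraries and 0.629, 0.696 and 0.701 after doxycycline. These groups were well apart, with a log2 difference of -0.39 (SD within the groups 0.06 and 0.09, exact permutation p = 0.1, adjusted over the 4 ratios 0.1333).

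Shmt2 over Shmt1 was 1.72, 1.63 and 1.55 untreated and 1.52, 0.851 and 1.26 after doxycycline. The groups touched nearly, since doxycycline replicate 1 was just under untreated replicate 3. The log2 difference was -0.47 (SD within the groups 0.08 and 0.43, exact permutation p = 0.1, adjusted 0.1333), and -0.23 without doxycycline replicate 2, the library with the lowest Shmt2 and the highest Shmt1 of its group. Aldh1l2 over Aldh1l1 was 100.1, 83.8 and 122 untreated and 28.1, 44.8 and 25.2 after doxycycline. This pair had the largest log2 difference, -1.67 (SD within the groups 0.27 and 0.44, exact permutation p = 0.1, adjusted 0.1333), with the scarce Aldh1l1 as its denominator.

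Mthfd1l over Mthfd1 was 1.35, 1.43 and 1.33 untreated and 1.17, 1.16 and 1.39 after doxycycline. Doxycycline replicate 3 was within the untreated range, so the groups overlapped, with a log2 difference of -0.15 (SD within the groups 0.05 and 0.14, exact permutation p = 0.3, adjusted 0.3). It was -0.10 to -0.23 when a single library was left out. A decrease of Mthfd1l beyond that of its cytosolic counterpart was therefore not shown.

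**Figure D3:**
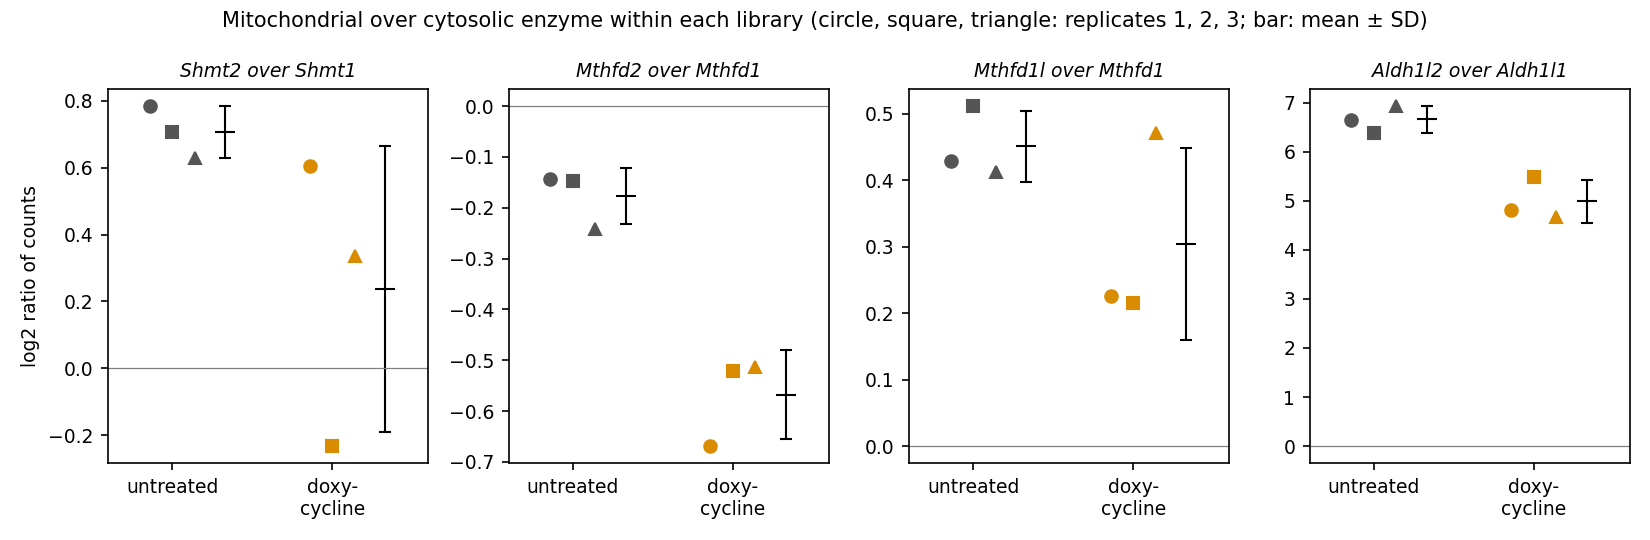
Log2 ratio of counts (y axis) of each mitochondrial enzyme over its cytosolic counterpart in untreated (grey) and doxycycline (orange) libraries, with symbols for replicates 1, 2 and 3 and black bars for mean ± SD. The 3 doxycycline libraries lie under all untreated ones except for Mthfd1l over Mthfd1.

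Levels of different enzymes were compared per kilobase of the longest protein-coding transcript (CPM per kb). In untreated tumours the order was Phgdh (89.0 ± 3.36, SD, n = 3 here and for each of the next values), Shmt2 (81.7 ± 4.44), Psat1 (72.1 ± 3.47), Mthfd2 (68.3 ± 1.61), Aldh1l2 (60.7 ± 0.977), Mthfd1l (59.7 ± 0.630), Mthfd1 (49.7 ± 1.77), Psph (40.6 ± 1.44), Shmt1 (40.1 ± 1.72) and Aldh1l1 (0.872 ± 0.172). The libraries overlapped between the neighbours Phgdh and Shmt2, Psat1 and Mthfd2, Aldh1l2 and Mthfd1l, and Psph and Shmt1. Each mitochondrial enzyme thus stood above its cytosolic counterpart. After doxycycline, Aldh1l2 was at 33.3 ± 2.99 and Mthfd2 at 44.0 ± 3.44 CPM per kb, beside Mthfd1 at 41.9 ± 1.96 and Shmt1 at 35.3 ± 4.06. Mthfd2 and Mthfd1, whose per-length ratio was 1.32 to 1.41 untreated, came to a ratio of 0.978 to 1.09, close to equal levels.

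Around these enzymes, 48 further genes of folate, methionine, glycine, serine and purine metabolism were examined, of which 41 passed the filter. By edgeR 6 were lower and 0 higher, against 2.18% and 2.84% of all genes. DESeq2 called 9 lower and 2 higher, against 782 and 887 of all 14809 genes. By limma-voom 6 were lower and 0 higher, against 276 and 251 of all genes. At an unadjusted p under 0.05 in edgeR, 14 were lower and 3 higher, where 3535 of all 14809 genes passed in either direction. The median log2 fold change of the 41 was -0.13, against 0.01 over all genes. Of 4 carriers of serine and glycine, 3 fell. The neutral amino acid exchanger Slc1a4, which carries serine, went from 148 ± 11.9 to 76.2 ± 9.60 CPM (SD, n = 3 each, log2 fold change -0.96, edgeR adjusted p = 0.0075), the glutamine and serine carrier Slc1a5 was at -0.58 (adjusted p = 0.0075) and the glycine transporter Slc6a9 at -0.93 (adjusted p = 0.0164). The fourth, Sfxn1, which brings serine into mitochondria, was at 145 CPM untreated and 144 CPM after doxycycline (log2 fold change -0.01, 95% interval -0.20 to 0.17, adjusted p = 0.948).

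Cth, the cystathionine gamma-lyase that makes cysteine in transsulfuration, was lower (-0.90, edgeR adjusted p = 0.0164), as were Pfas of purine synthesis (-0.41, adjusted p = 0.0208) and the reduced folate carrier Slc19a1 (-0.40, adjusted p = 0.0388). The other 5 purine synthesis genes were between -0.25 and 0.01 and did not pass. Other mitochondrial genes of the route were not called by edgeR. Slc25a32, the folate carrier of mitochondria, was at -0.06 (adjusted p = 0.861) and Mthfd2l, a paralog of Mthfd2, at 0.11 (adjusted p = 0.716). Gcsh of the glycine cleavage system was at -0.18 (adjusted p = 0.366) and Mtfmt, which formylates the initiator tRNA, at -0.07 (adjusted p = 0.818). Gcat (-0.61, adjusted p = 0.0862) and Sardh (-0.21, adjusted p = 0.142) were lower in every doxycycline library, as were 14.4% of all genes. Among the 4 tested genes of glycine and serine use, which include Gcat, DESeq2 called 1 lower and limma-voom 0. Among the glycine cleavage and choline genes, which include Sardh, both called 0. For Amt (-0.16), Dld (-0.06) and Gldc (0.95) the groups overlapped. Tyms, which makes thymidylate, did not pass either (-0.05, adjusted p = 0.802). The next smallest p-values were those of Ggh, which trims folate polyglutamates (0.80, adjusted p = 0.0671), Mtrr, the reductase that keeps methionine synthase active (-0.37, adjusted p = 0.0739), the folate receptor Folr2 (1.41, adjusted p = 0.0763) and Fpgs, which adds glutamates to folate (-0.35, adjusted p = 0.083). Folr2 is also a macrophage gene, and 3 of 10 macrophage markers were higher by edgeR in these libraries, whose part in its level was not tested.

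**Figure D4:**
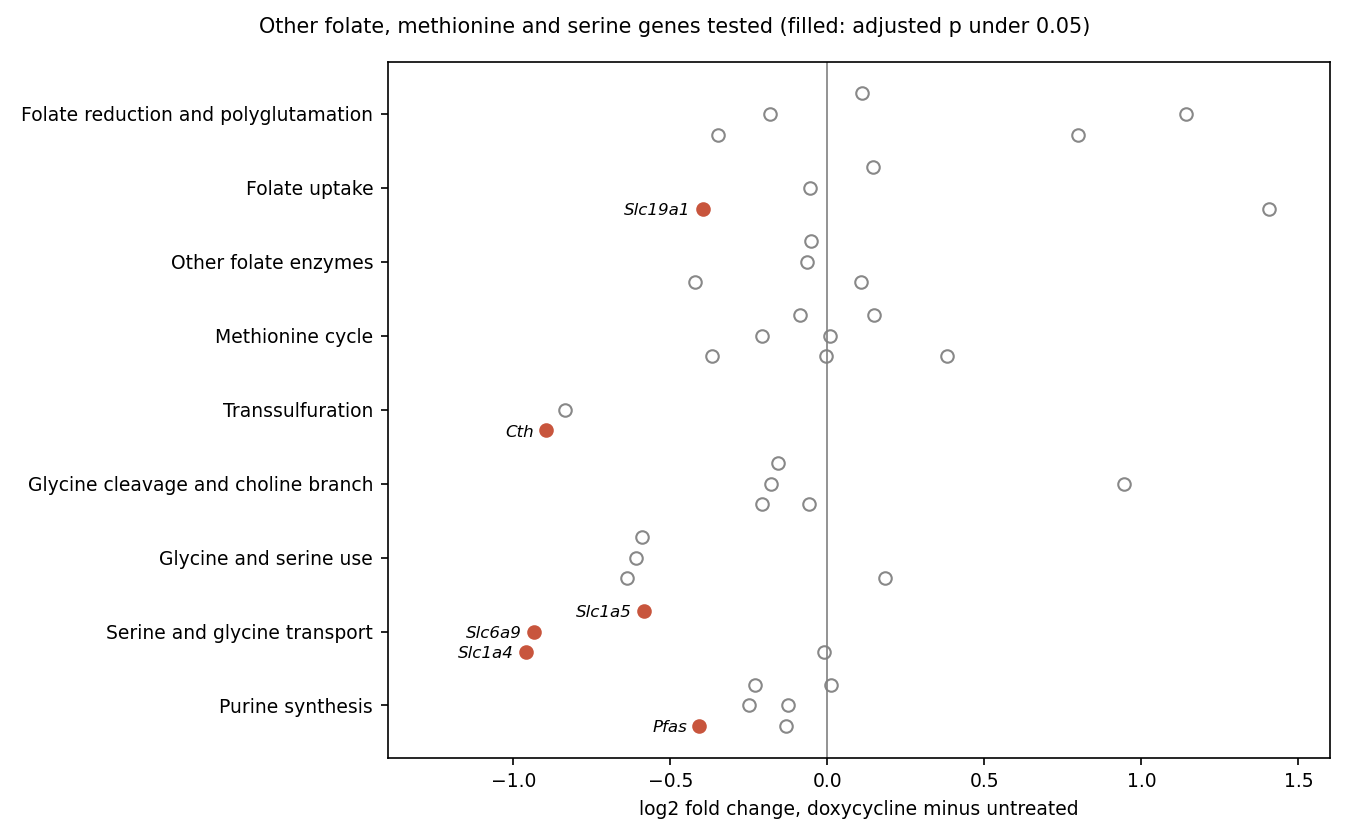
Log2 fold change (x axis, doxycycline minus untreated) of the 41 tested genes around the 10 enzymes, 1 point a gene, in rows by role, filled and named where the edgeR adjusted p is under 0.05. The 6 filled points are all negative, and 3 of them are carriers of serine and glycine.

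Atf4 itself was at 135, 123 and 129 CPM untreated and at 107, 110.5 and 102 CPM after doxycycline. Its doxycycline libraries were all lower, with a log2 fold change of -0.28 (SE 0.08, 95% interval -0.45 to -0.10, edgeR adjusted p = 0.0799). Across the 6 libraries, the genes outside the list whose log2 CPM followed the mean of the 4 mitochondrial members most closely were Iars (Pearson r = 0.999), which encodes the cytosolic isoleucyl-tRNA synthetase, H2afx (0.997), a histone variant of the DNA damage response, Fhl3 (0.997), a LIM domain protein, Slc35c2 (0.997) and Itprip (0.996). All 5 had lower values in every doxycycline library, as had 14.4% of all genes. This follows from choosing them by likeness to members that are split this way. Their log2 fold changes ran from -0.41 for Iars to -1.16 for Itprip. These correlations describe 6 points that share the split between the groups.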

How the data were processed

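The authors deposited read counts per gene for 6 libraries (ribosome-depleted tumour RNA, Illumina TruSeq v2, per the labels' protocols). The submitters' processing notes name TopHat2 2.0.8, TopHat, HTSeq and mm9. Annotation, strand use and the handling of multiply mapped or duplicated reads were not given in the sources used here. Rows without a gene name (90, at most 0.0402% of a library's counts) were left out.

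Counts were fitted in R 4.3.3 with edgeR 4.0.16 (filterByExpr, TMM, robust glmQLFit and glmQLFTest, two-sided, Benjamini-Hochberg over 14809 genes, threshold 0.05). The fitting code was tested on simulated data. DESeq2 1.42.0 and limma-voom 3.58.1 were alternatives. CPM were scaled by TMM-adjusted totals. Standard errors are the log2 fold change over the square root of F. Ratios used counts plus 0.5 and SciPy's exact permutation test (1.17.1). Transcript length, GC content and exonic length came from GENCODE M21 (GRCm38, not the authors' build). Length and GC content were found for 99.0% of named genes. Promoters are RefSeq's (GRCm38.p6).

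The named genes are the 10 members, St18, Atf4, the wider-list genes past the threshold with the 4 next smallest p-values (others of that list were named after their values were seen), and the 5 genes most correlated with the mitochondrial members. Members, lists and tests were chosen with earlier results of these data known.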

Additional observations from a re-analysis of the deposited data

How the results depend on the processing

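All 10 members kept the sign of their log2 fold change under the 14 alternative fits, and Aldh1l2 was past the threshold in each (-0.90 to -0.80). Offsets for GC content and length gave 4 members lower and a median of -0.55 for the mitochondrial arm, with 213 genes lower over the whole table against 323. DESeq2 called 887 genes higher and 782 lower against 421 and 323, and limma-voom called 251 higher and 276 lower. With the replicate number as a block, 3 members were lower (Mthfd1l and Psph missed the threshold), with 179 genes lower and 215 higher over all genes. Deviations of same-numbered libraries from their group means had correlations of -0.0152, -0.0823 and 0.00896. Those of differently numbered libraries were between -0.161 and 0.155. With 3 libraries a group, these values cannot show whether the numbers pair the libraries, and the labels do not state it. A block cannot move the mean differences of the log2 ratios in this balanced design. Leaving out 1 library gave 1 to 9 members lower and 0 to 1 higher, 12 to 866 genes lower and 11 to 1244 higher over all genes, and arm medians of -0.69 to -0.61 (mitochondrial) and -0.29 to -0.13 (cytosolic). The lowest counts came without an untreated library and the highest without doxycycline replicate 2, and the cause was not tested. Depth limits Aldh1l1, with 44 to 133 counts per library.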
